A study of Mus musculus with 9 samples.

Results

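The hypoxia response genes described here were 10 genes of the pathway through which cells respond to low oxygen. They comprised the alpha subunits of the hypoxia-inducible factors (HIF), Hif1a, Epas1 and Hif3a, the genes Vhl, Egln1 and Egln3, whose products mark those subunits for destruction, and the transcriptional targets Vegfa, Bnip3, Ndrg1 and Ankrd37. They were selected by symbol, a rule that uses no measured value, although earlier results of these data were known when the list was made, and 8 of the 10 were among the 13081 genes of the deposited table. Hif3a and Ankrd37 were not among these genes, so that their expression was not analyzed here and they appear only with their promoters, and all 8 others passed the filter on low values. RNA was from kidneys of wild-type mice of 3 months (young, n = 4 libraries) and 16 months (old, n = 5 libraries). The labels enter the age in a treatment field and name no other treatment, no sex and no transgene. The strain in the study's methods is C57BL/6. The labels do not state that each library came from a separate mouse, so p-values measure the spread between these libraries. All young libraries share 1 title prefix and all old libraries another, so that whatever the prefix stands for and age cannot be told apart.

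Values are normalized read counts, the reads of a gene scaled by the size factor of the library, from a kit that reads the 3′ end of polyadenylated RNA. The libraries held 4486406 to 6355095 reads in the table, and a floor of 3 reads was 2.46 to 3.54 normalized counts. Of 12667 genes tested, 7568 (59.7%) were called, meaning an adjusted p-value under 0.05 with limma, and 45.1% were both called and at least 1.5-fold apart. Genes of the mitochondrial genome took 27.0 to 29.7% of reads in the young libraries and 35.8 to 38.1% in the old ones. Of all reads, mitochondrial rRNA made up 2.98 to 4.46% in young and 21.8 to 25.4% in old libraries, and the other mitochondrial genes 23.8 to 25.3% and 12.7 to 15.0%. Over 12455 genes with a known transcript length, the log2 fold change and that length had a Spearman correlation of 0.28, a value across genes, whose changes are not independent. Marker genes of the kidney were present, with 10 of 10 proximal tubule, 6 of 6 thick ascending limb and 7 of 7 podocyte genes in the table. Marker sums of several cell types separated the age groups. They were higher in all old libraries for thick ascending limb (10521 to 11178 normalized counts in young and 11772 to 16149.7 in old), distal convoluted tubule (3231 to 4071 and 4774 to 5885), podocytes (949 to 979 and 1076 to 1295) and B and plasma cells (225 to 668 and 779.9 to 2423), and lower for intercalated cells (698 to 812 and 489 to 599). Collecting duct principal cell markers were at 2209.5 to 2873 in young, 1056 to 1597 in 4 old libraries and 3497 in old replicate 3, macrophage markers at 1069.7 to 1294 and 1287 to 1849, and proximal tubule markers, which overlapped, at 38853 to 40917 and 34471 to 42911. The part of these cell types in the results below was not tested. Summed adipocyte markers stood apart in young replicate 2 (1009 normalized counts against 269 to 430.4 in the other young libraries) and in old replicate 3 (828.5 against 56.0 to 237 in the other old ones), and each member called below was also called without both libraries. The tissue holds many cell types, and fewer cells of a type and less RNA per cell cannot be told apart.

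When oxygen is available, the prolyl hydroxylases Egln1, Egln2 and Egln3 (also called PHD enzymes) hydroxylate the HIF alpha subunits. The Vhl protein, the recognition subunit of a ubiquitin ligase, binds the hydroxylated subunits and directs them to the proteasome. When oxygen is low, the subunits persist, pair with Arnt and switch on genes of angiogenesis, glycolysis and mitochondrial turnover. The kidney is known as the main site of erythropoietin production in the adult, its medulla works at low oxygen, and Hif1a is found mainly in tubule cells whereas Epas1 (HIF-2α) is found mainly in endothelial and interstitial cells. Because the alpha subunits are controlled chiefly through protein stability, the mRNA levels given here are not measures of HIF protein or activity.

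HIF dimers bind DNA at a core of 5 bases, ACGTG or GCGTG, and 4 promoters are shown because they hold this core in members with different age patterns. The sequences are those of RefSeq on build GRCm38.p6, from 250 bases before to 50 bases after an annotated start, read 5′ to 3′ along the gene, with the core on either strand in capitals (CACGT and CACGC are the cores read from the other strand, and overlapping matches count as 1 site). Entries were found for 8 of the 10 members, Vegfa having 2, and none for Epas1 or Ndrg1. The Hif1a window and the one Vegfa window that holds a core lie inside the gene as GENCODE vM21 places it, and the bases after their start sites were not found in a transcript of that annotation. A core was present in 7 of the 9 promoters of these genes, and 43.8% of all 32851 promoters held one. Bnip3 had 4 sites (chr7:138909457-138909756, minus strand), a number reached by 2.44% of all promoters, and Ankrd37 had 3, reached by 6.55%. Egln1 (chr8:124949205-124949504, minus strand), Hif1a (chr12:73907617-73907916, plus strand) and Hif3a had 2 each, and Egln3 (chr12:54203825-54204124, minus strand) had 1. The Vegfa promoter at chr17:46032328-46032627 had none and that at chr17:46025114-46025413 had 2, and the Vhl promoter had none. A match is a description of letters and not of a bound site, and its absence says only that the letters are not in this window.
Bnip3: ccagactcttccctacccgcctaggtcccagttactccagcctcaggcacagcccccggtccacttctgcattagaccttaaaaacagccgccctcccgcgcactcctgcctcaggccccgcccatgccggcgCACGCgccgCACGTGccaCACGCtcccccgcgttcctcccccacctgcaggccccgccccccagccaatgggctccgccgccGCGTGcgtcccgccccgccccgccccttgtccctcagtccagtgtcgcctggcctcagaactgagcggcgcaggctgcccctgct
Egln1: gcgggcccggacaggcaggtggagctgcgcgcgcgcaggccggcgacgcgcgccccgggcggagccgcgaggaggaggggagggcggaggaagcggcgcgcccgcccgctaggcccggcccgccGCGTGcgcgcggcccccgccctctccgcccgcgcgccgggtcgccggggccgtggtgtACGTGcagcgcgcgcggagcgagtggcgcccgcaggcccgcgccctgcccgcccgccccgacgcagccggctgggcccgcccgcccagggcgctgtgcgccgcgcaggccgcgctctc
Egln3: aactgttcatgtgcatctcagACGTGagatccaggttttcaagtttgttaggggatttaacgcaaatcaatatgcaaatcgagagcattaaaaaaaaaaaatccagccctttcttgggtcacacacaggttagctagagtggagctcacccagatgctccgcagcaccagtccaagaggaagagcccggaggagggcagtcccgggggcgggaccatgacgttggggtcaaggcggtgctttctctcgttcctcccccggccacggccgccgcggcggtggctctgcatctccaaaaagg
Hif1a: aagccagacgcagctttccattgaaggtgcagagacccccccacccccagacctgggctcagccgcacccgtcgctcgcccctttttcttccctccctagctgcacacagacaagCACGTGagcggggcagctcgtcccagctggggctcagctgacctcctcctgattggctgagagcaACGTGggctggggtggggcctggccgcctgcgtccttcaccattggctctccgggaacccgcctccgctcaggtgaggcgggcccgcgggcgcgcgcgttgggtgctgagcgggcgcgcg

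With age, the mRNAs of both measured HIF alpha subunits and of Vegfa rose, those of Vhl and Egln1 fell, and Egln3, Bnip3 and Ndrg1 did not pass the test. Thus 5 of the 8 members were called, against 59.7% of all genes, of which 3 were higher in old kidneys (29.2% of all genes) and 2 lower (30.5%). Their shares are near those of the table as a whole, so the count is no result about the members. Young and old values were fully separated for 4 members, Hif1a, Epas1 and Vegfa with old higher (23.3% of all genes) and Vhl with old lower (25.7%), against 49.0% of all genes in either direction. The median log2 fold change was 0.05 over the 8 members and -0.0027 over all genes tested.

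**Figure D1:**
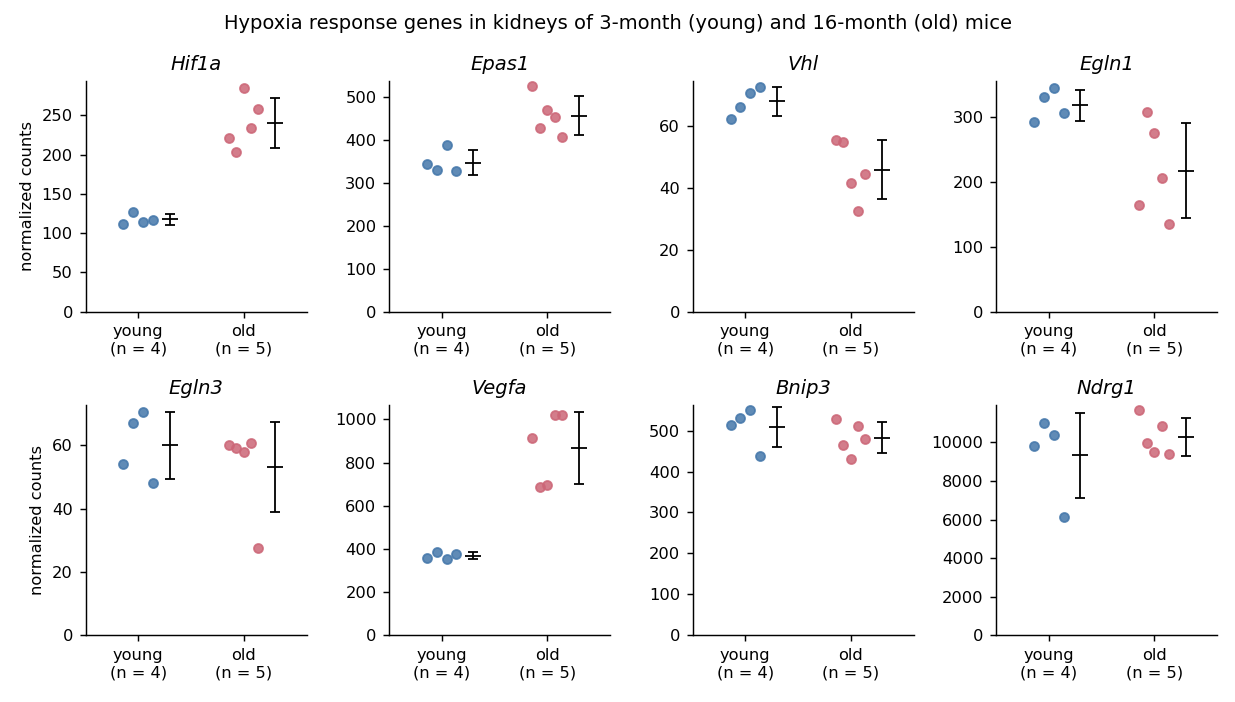
Normalized counts (vertical axes, from 0) of the 8 measured hypoxia response genes in each library of young (n = 4) and old (n = 5) kidneys, where points are libraries and the bars give the mean and SD. The old libraries all lie above the young ones for Hif1a, Epas1 and Vegfa and all below them for Vhl, whereas the groups overlap for Egln1, Egln3, Bnip3 and Ndrg1.

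Hif1a, the alpha subunit of HIF-1 (chr12:73901375-73947530, plus strand, in the GENCODE vM21 annotation of GRCm38), with 2 core sites in the promoter printed above, had the larger rise of the 2 measured subunits. Its normalized counts in young replicates 1 to 4 were 111, 127, 115 and 117, and in old replicates 1 to 5 they were 222, 203, 285, 234 and 258. Every old library was above every young one. The mean went from 118 ± 6.87 to 240.4 ± 31.8 (SD, n = 4 and 5), a fitted 2.02-fold rise (log2 fold change 1.02, SE 0.12, 95% confidence interval 0.76 to 1.27, limma adjusted p = 1.02e-06). Fitted folds come from the mean log2 values and so can differ from the ratio of the means. The rise was called under all 23 alternative settings, with log2 fold changes of 0.89 to 1.16. The annotation places 148 exonic bases of Gm49321 on the same strand within Hif1a, none of them in the last 500 bases of the transcript.

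Epas1, which encodes HIF-2α (chr17:86753700-86833410, plus strand), rose by less. Its normalized counts were 344, 329, 388 and 327 in the young libraries and 527, 428, 469.5, 454 and 406 in the old ones. The lowest old value was above the highest young value. The mean was 347 ± 28.5 in young and 457 ± 46.0 in old kidneys (SD), a fitted 1.31-fold rise (log2 fold change 0.39, SE 0.10, interval 0.18 to 0.61, limma adjusted p = 0.00307). Of the 23 alternatives 22 kept this call, and after removal of the trend with transcript length the log2 fold change was 0.18 (limma adjusted p = 0.150). Markers of endothelial cells, a known site of Epas1, summed to 1569 to 1939 normalized counts in young and 1863 to 2221 in old libraries, with 4 of 10 called higher, 0 lower and 6 not called (limma). Markers of fibroblasts and pericytes, which stand for interstitial cells, summed to 894 to 1131 in young and 766 to 1151 in old libraries, with 2 of the 6 tested called higher, 3 lower and 1 not (limma). Over all genes 29.2% were called higher and 30.5% lower. The part of these cell types in the Epas1 result was not tested.

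Both genes rose, and the log2 difference between them within a library became smaller. Counts are not divided by length here, so the difference is used only to follow its change with age and not to compare the levels of both genes. The log2 difference of Epas1 minus Hif1a was 1.55 ± 0.17 in young libraries (range 1.36 to 1.75) and 0.93 ± 0.24 in old ones (range 0.65 to 1.25), with no overlap. It fell by 0.62 on the log2 scale (SE 0.14), with a two-sided exact permutation p of 0.0159, the smallest that groups of 4 and 5 libraries allow, and 0.0397 after adjustment over the 5 differences examined. With fewer splits to draw on, the unadjusted exact permutation p was the smallest possible in every run that left out 1 library. This p was 0.0286 without an old library and 0.0357 without a young one. After adjustment it was 0.0476 without old replicate 2, where the difference was -0.66, 0.0714 without any other old library and 0.0893 without any young one. The value of 0.0476 differs only because another of the 5 differences also reached 0.0286 there. Differences were -0.70 to -0.56 over these libraries.

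Among the genes of oxygen-dependent degradation, Vhl, the substrate receptor of the ubiquitin ligase (chr6:113623959-113631633, plus strand), fell. It had few reads, 35 to 80 per library. The libraries held 62.2, 66.1, 70.6 and 72.4 normalized counts in young and 55.4, 54.7, 41.6, 32.6 and 44.6 in old kidneys. The 5 old values were all below the 4 young ones, and old replicates 1 and 2 were nearest to them. The mean changed from 67.8 ± 4.59 to 45.8 ± 9.53 (SD; log2 fold change -0.58, SE 0.18, interval -0.97 to -0.19, limma adjusted p = 0.0112). The call was lost after removal of the length trend (-0.43, limma adjusted p = 0.0513) and when mitochondrial genes were left out before scaling (-0.44, limma adjusted p = 0.0504). That last scaling moved the median of all genes to 0.14, and relative to this median Vhl was at -0.58.

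Egln1, which encodes PHD2, the main oxygen sensor of this enzyme family (chr8:124908587-124949324, minus strand), has 2 core sites in the promoter printed above and also fell, but unevenly. Its normalized counts were 292, 330.4, 345 and 306 in young and 164, 307, 275, 206 and 136 in old libraries. Of the old libraries 4 were below the lowest young value, and old replicate 2 lay within the young range. The mean was 318 ± 23.7 in young and 218 ± 72.5 in old kidneys (SD), a fitted 1.53-fold fall (log2 fold change -0.61, SE 0.18, interval -0.99 to -0.23, limma adjusted p = 0.00759). All 23 alternatives called the fall, with adjusted p from 0.000707 to 0.0423.

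Egln3, which encodes PHD3 and is itself a HIF target (chr12:54178981-54203860, minus strand), has 1 core site there and did not pass the test. Its normalized counts were 54.1, 67.0, 70.6 and 48.0 in young and 60.1, 59.1, 57.8, 60.6 and 27.6 in old kidneys. Old replicates 1 to 4 differed by less than 3 normalized counts and lay inside the young range, and old replicate 5 was below every other library. The log2 fold change was -0.21 (SE 0.23, interval -0.69 to 0.26, limma adjusted p = 0.437), and without old replicate 5 it was 0.0046. The log2 difference of Egln3 minus Egln1 was -2.40 ± 0.17 in young and -2.01 ± 0.40 in old libraries, a change of 0.40 (SE 0.20) that did not pass (exact permutation p = 0.0794, adjusted 0.132).

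The ligase that Vhl belongs to also contains elongin B (Elob), elongin C (Eloc), the scaffold cullin 2 (Cul2) and the RING protein Rbx1, and each of these mRNAs was lower in old kidneys as well. Eloc fell from 392 ± 20.9 to 84.3 ± 11.9 normalized counts (SD; log2 fold change -2.21, SE 0.13, limma adjusted p = 5.95e-11), the largest fall of the 5 subunits. Its old values were 68.4, 101, 87.2, 86.8 and 78.5 and its lowest young value was 361. Cul2 fell from 80.6 ± 9.44 to 37.9 ± 11.4 (log2 fold change -1.12, SE 0.22, limma adjusted p = 0.000209). Rbx1, which also serves other cullin ligases, fell from 582 ± 49.4 to 446 ± 45.4 (log2 fold change -0.39, SE 0.10, limma adjusted p = 0.00346), a call that was lost after removal of the length trend (-0.22, limma adjusted p = 0.0691) and kept at -0.24 with mitochondrial genes left out. Elob fell from 1473 ± 135 to 590.1 ± 73.9 (log2 fold change -1.32, SE 0.10, limma adjusted p = 5.05e-09), but 41.5% of the 50-base words in its last 500 bases also occur in other genes, so this value is uncertain. Expressed as a share of the young mean, the old means were 67.5% for Vhl, 40.1% for Elob, 21.5% for Eloc, 47.0% for Cul2 and 76.7% for Rbx1. No old library exceeded 82.4% of the young mean for any subunit, and no young library was below 87.6%. Over all genes, 30.5% were called lower and 25.7% were fully separated with old lower.

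**Figure D2:**
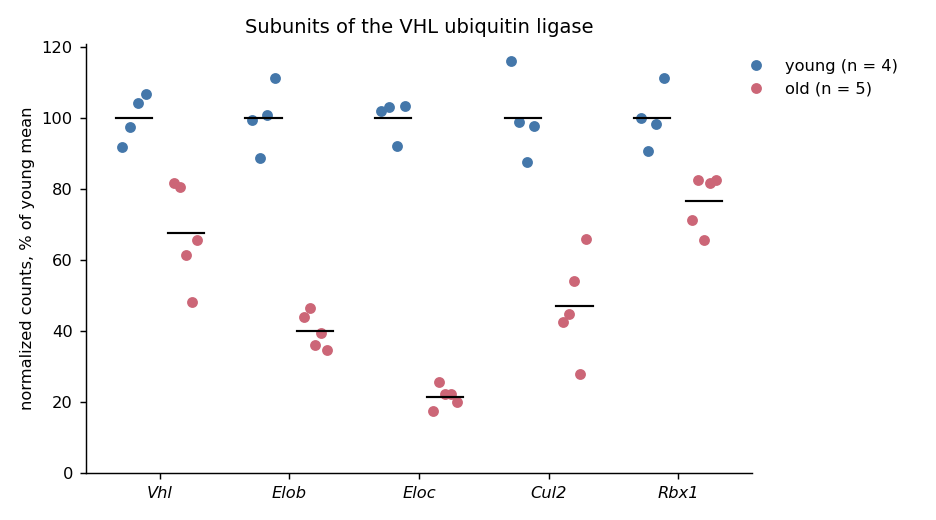
Normalized counts of the 5 subunits of the Vhl ubiquitin ligase as a percentage of the mean of the young libraries (vertical axis, from 0), where points are libraries (young n = 4, old n = 5) and horizontal lines are group means. All old points lie between 17.4 and 82.4% and all young points between 87.6 and 116%.

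Among the targets, Vegfa, the ligand that guides blood vessel growth and maintains the glomerular capillaries (chr17:46016993-46032369, minus strand), had the largest rise of the members. Young kidneys held 357, 387, 354 and 377 normalized counts and old kidneys 915, 688, 696, 1019.6 and 1021. The young libraries lay close together, and the old ones were lowest in replicates 2 and 3 and highest in replicates 4 and 5. The mean went from 369 ± 15.7 to 868 ± 166 (SD), a fitted 2.32-fold rise (log2 fold change 1.21, SE 0.12, interval 0.95 to 1.47, limma adjusted p = 1.24e-07), and all 23 alternatives called it (1.15 to 1.35). Podocytes are a known source of Vegfa, and their summed markers, given above, were higher in all old libraries. Of the 7 podocyte markers 4 were called higher, 1 lower and 2 not (limma, against 29.2% higher and 30.5% lower over all genes). The slit diaphragm gene Nphs1 went from 11.7 to 50.1 normalized counts and Podxl from 318 to 115. For Nphs1, 11.5% of the 50-base words in its last 500 bases also occur in other genes. The part of podocytes and of the other cell types whose markers moved with age in the Vegfa result was not tested.

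Bnip3, a mitophagy receptor of the outer mitochondrial membrane (chr7:138890836-138909519, minus strand) and the member with most core sites in the promoters shown above, did not pass the test. Its normalized counts were 514, 531, 549 and 438 in young and 528, 464, 431, 511 and 481 in old kidneys. The groups overlapped over most of their range. The means were 508 ± 48.7 and 483 ± 38.4 (SD), with a log2 fold change of -0.07 (SE 0.10, interval -0.28 to 0.14, limma adjusted p = 0.561), so that the interval leaves room for a fall of 0.28 or a rise of 0.14 on the log2 scale.

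Ndrg1, a stress-induced gene of the N-myc downstream regulated family (chr15:66929318-66969640, minus strand), did not pass either. The young libraries held 9806, 10998, 10366 and 6115 normalized counts and the old ones 11671, 9989, 9515, 10867 and 9386. Young replicate 4 was the lowest of the 9 libraries, and the other young libraries lay within the old range. The means were 9321 ± 2192 and 10286 ± 968 (SD), with a log2 fold change of 0.17 (SE 0.14, interval -0.13 to 0.47, limma adjusted p = 0.313), and without young replicate 4 it was -0.02.

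**Figure D3:**
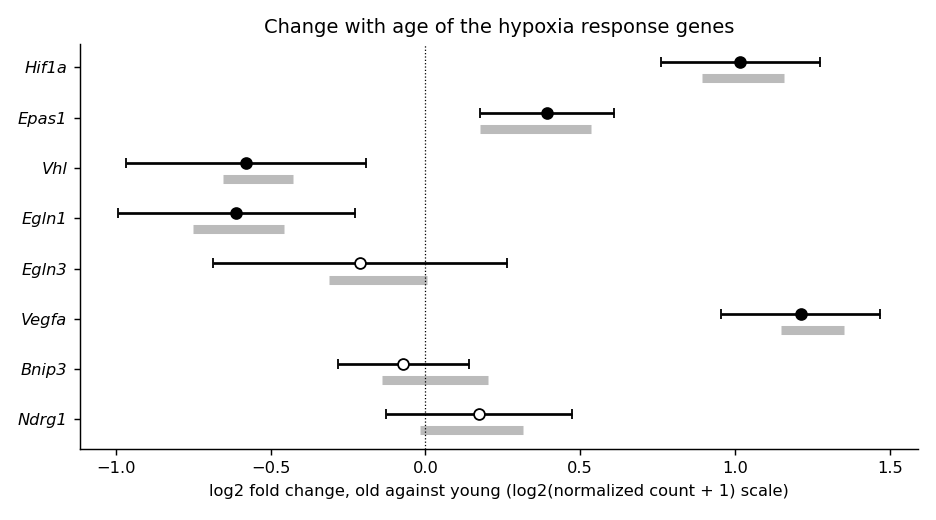
Log2 fold change of old against young kidneys (horizontal axis, on the log2(normalized count + 1) scale) for the 8 members, where points are estimates with 95% confidence intervals, filled points passed the limma test and grey bars span the estimates under the alternative settings. Vegfa and Hif1a lie farthest to the right, from 0.95 and 0.76 upward, whereas the intervals of Egln3, Bnip3 and Ndrg1 cross 0.

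The members were then set beside paralogs with a like role, as log2 differences within each library. Vegfa minus Vegfb, a second ligand of the Flt1 receptor, was 0.18 ± 0.16 in young (range 0.04 to 0.40) and 1.08 ± 0.25 in old libraries (range 0.74 to 1.44). The groups did not overlap, and the difference grew by 0.91 (SE 0.14, exact permutation p = 0.0159, adjusted 0.0397, with the same limit on leaving out libraries as above). Bnip3 minus its paralog Bnip3l changed by 0.05 (SE 0.18, exact permutation p = 0.730, adjusted 0.778), and Ndrg1 minus Ndrg2 by 0.03 (SE 0.12, exact permutation p = 0.778, adjusted 0.778). In both cases the groups overlapped, and old replicate 1 had the highest Bnip3 minus Bnip3l difference (1.30) and old replicate 3 the lowest (0.39).

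**Figure D4:**
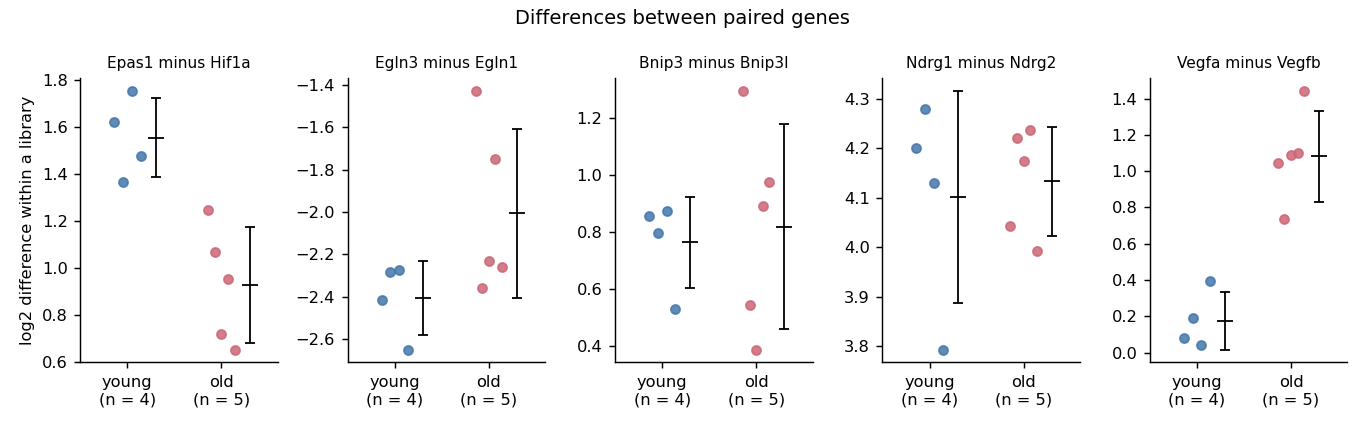
Log2 difference between the paired genes within a library (vertical axes, which do not start at 0), for young (n = 4) and old (n = 5) libraries, where points are libraries and bars give the mean and SD. The groups separate for Epas1 minus Hif1a, lower in old, and Vegfa minus Vegfb, higher in old, and overlap for the other 3 pairs.

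Of 16 further regulators of the HIF pathway, 15 were tested, and 4 were called higher and 9 lower in old kidneys (limma, against 29.2% and 30.5% of all genes), with a median log2 fold change of -0.39 against -0.0027 for all genes. Besides the ligase subunits, the falls included Siah1a (108 to 25.3 normalized counts, log2 fold change -2.12, limma adjusted p = 2.85e-07) and Siah2 (126.2 to 39.2, -1.65, limma adjusted p = 1.63e-07), ubiquitin ligases that degrade prolyl hydroxylases. Egln2, the remaining prolyl hydroxylase of HIF, fell by 0.45 on the log2 scale (344 to 251), and Cited2, which competes with HIF for its coactivators, fell by 0.50 (428 to 304). The chaperone Hsp90ab1, which stabilizes Hif1a protein, fell by 0.30. The coactivator Ep300 rose from 195 to 434 normalized counts (1.15, SE 0.11, limma adjusted p = 8.40e-08). Hif1an, the asparaginyl hydroxylase that blocks coactivator binding, rose from 69.4 to 117 (0.73, limma adjusted p = 0.000755), and Arnt2, a partner subunit, from 83.3 to 132 (0.63, limma adjusted p = 0.00176). The coactivator Crebbp rose by 0.39, a direction that turned to -0.16 after removal of the length trend. In that setting 2 regulators were called higher and 6 lower, against 3593 and 3578 of all 12455 genes. Removal of that trend left Ep300 (0.65), Hif1an (0.45, limma adjusted p = 0.0200) and Cited2 (-0.30, limma adjusted p = 0.0297) called with smaller changes. It also ended the calls of Arnt2 (0.35, limma adjusted p = 0.0564), Egln2 (-0.22, limma adjusted p = 0.0831) and Hsp90ab1 (-0.12, limma adjusted p = 0.297), the last of which did not pass with mitochondrial genes left out either (-0.16, limma adjusted p = 0.148). The partner subunit Arnt was at -0.20 (SE 0.17, limma adjusted p = 0.329) and Hsp90aa1 at -0.06 (limma adjusted p = 0.638), neither passing the test, and P4htm, with 2 to 15 reads per library, was below the filter.

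Genes of glucose uptake and glycolysis that HIF is known to induce were called in shares near those of all genes. Of 20 listed, 18 were tested, with 5 called higher, 6 lower and 7 not (limma, against 29.2% higher and 30.5% lower over all genes). Their median log2 fold change was 0.07. With mitochondrial genes left out before scaling 8 were called higher and 5 lower, where 4483 of all 12654 genes were called higher and 3170 lower. The glucose transporter Slc2a1 fell from 183 to 83.0 normalized counts (-1.14, SE 0.14, limma adjusted p = 9.29e-07). The enzymes Tpi1 (-1.10, SE 0.11) and Gapdh (-1.69, SE 0.14) fell too, although 35% of the end sequence of Gapdh is shared with other genes. The rises were smaller, namely Gpi1 (0.68, SE 0.09, with 24.6% of its end sequence shared), Pfkp (0.59, SE 0.18) and Pkm (0.46, SE 0.11). The rise of Pfkp was lost after removal of the length trend (0.14, limma adjusted p = 0.504) and without both libraries with adipocyte markers (0.43, limma adjusted p = 0.0764).

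The other HIF targets ranged from pH regulation to collagen modification. Of 31 listed, 28 were tested, with 5 higher, 10 lower and 13 not called (limma) and a median of -0.19. This stands against 59.7% of all genes called, 29.2% higher and 30.5% lower. The split was 3 to 11 when libraries were scaled to the table total, where 3372 of all 12695 genes were called higher and 4078 lower. It was 8 to 10 with mitochondrial genes left out, where 4483 of all 12654 genes were called higher and 3170 lower. The carbonic anhydrase Car12 fell from 606 to 241 normalized counts (-1.34, SE 0.12, limma adjusted p = 1.81e-08), Fam162a, a mitochondrial cell death gene, from 307 to 109 (-1.49, SE 0.12), and Insig2, a regulator of sterol synthesis, from 119.7 to 41.7 (-1.50, SE 0.15). Among the cell type markers, those of the proximal tubule included falls too (3 of 10 called higher and 6 lower, limma). The same held for intercalated cells (1 of 5 higher and 4 lower) and collecting duct principal cells (0 of 6 higher and 3 lower). Over all genes 29.2% were called higher and 30.5% lower. The part of these cell types in the falls of regulators and targets was not tested. Heme oxygenase 1 (Hmox1) rose from 35.1 to 78.3 (1.09, SE 0.23, limma adjusted p = 0.000521), and the collagen-modifying enzyme Plod1 from 86.6 to 155 (0.82, SE 0.17). Ddit4, an inhibitor of mTORC1 signaling, was at 0.56 (SE 0.22, limma adjusted p = 0.0324), a rise called in 14 of 22 alternatives. It was not called without young replicate 1 (0.47) or 3 (0.58) or without old replicate 1 (0.47), 2 (0.52) or 3 (0.45). Outside the naming rule and chosen after their values were seen, the classical targets Car9 (76.3 to 24.3 normalized counts, -1.66, SE 0.26) and Adm (64.6 to 22.6, -1.47, SE 0.20) fell as well.

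Beside Vegfa, 8 of 9 listed VEGF ligands and receptors were tested, with 4 called higher, 1 lower and 3 not (limma) and a median of 0.23. The share called in either direction is near the 59.7% of all genes, of which 29.2% were higher and 30.5% lower. The receptors Flt1 (347 to 539 normalized counts, 0.63, SE 0.12, limma adjusted p = 0.000144) and Kdr (355 to 503, 0.51, SE 0.11, limma adjusted p = 0.000529) rose. After removal of the length trend Flt1 was at 0.29 (limma adjusted p = 0.0299), and the call of Kdr was lost (0.25, limma adjusted p = 0.0549). The co-receptor Nrp1 fell from 627 to 441 (-0.50, SE 0.12, limma adjusted p = 0.00104). Nrp2 (0.46, limma adjusted p = 0.0415) and Vegfb (0.31, limma adjusted p = 0.0293) rose, and were called in 13 and 18 of 23 alternatives. Nrp2 was not called without young replicate 1 (0.31), 3 (0.47) or 4 (0.50) or without old replicate 1 (0.38), 3 (0.38) or 5 (0.41), and Vegfb was not called without young replicate 4 (0.24) or old replicate 1 (0.27) or 4 (0.25). After removal of the length trend Nrp2 was at 0.13 (limma adjusted p = 0.551) and Vegfb at 0.66. With libraries scaled to the table total, with reads thinned, after removal of the length trend or without young replicate 4, 2 genes of the list were called higher and 1 lower. Over all genes these settings, in that order, called 3372, 3275, 3593 and 3433 higher and 4078, 3964, 3578 and 3564 lower. The genes tested numbered 12695, 12718, 12455 and 12667. The endothelial marker sums given beside Epas1 also stand beside these receptors, and their part was not tested.

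**Figure D5:**
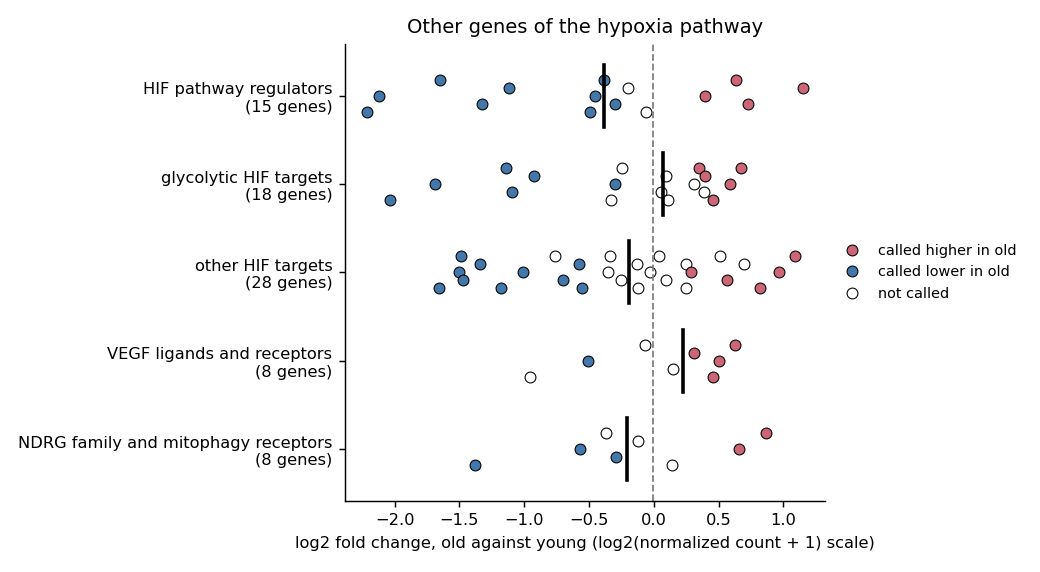
Log2 fold change of old against young kidneys (horizontal axis) for each tested gene of 5 lists around the hypoxia response genes, where points are genes, filled where the limma test called them, black bars are list medians and the dashed line is the median of all genes tested. The regulators lie mostly to the left, with a median of -0.39, and the glycolytic targets on both sides, with a median of 0.07.

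By the main fit Vegfa had the largest rise among the members and Egln1 the largest fall, although Vhl fell more with DESeq2 (-0.57 against -0.54). The patterns most like those of Vegfa and Egln1 were sought by Pearson correlation of log2(normalized count + 1) over the 9 libraries, among 8150 genes with a mean of at least 50. These values are descriptions, since the libraries share the age difference and many genes moved with it. For Vegfa the closest were Mboat7 (r = 0.997), Mfge8 (0.995) and Myo6 (0.994). For Egln1, with its uneven old group, they were Ppme1 (0.988), Arfgap2 (0.985) and Gnai3 (0.977).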

How the data were processed

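Kidney RNA of wild-type mice was converted into 4 young and 5 old 3′ libraries from 500 ng of total RNA (integrity number 7.5, range 7.4 to 7.6) and sequenced as stranded single reads. Per the labels and the study's methods, reads were checked with FastQC 0.11.7, aligned to GRCm39 with TopHat2 2.0.10 (Bowtie 1.0.0, SAMtools 0.1.19), counted with HTSeq 0.6.1 on GENCODE vM26 and normalized with DESeq2. What was deposited is a signal in units of counts, reads divided by a size factor, from which whole reads were recovered for 100% of entries (tolerance 0.0001 reads). The kit version differs between labels and methods.

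Genes with at least 10 normalized counts in at least 4 libraries were tested with limma 3.58.1 (variance trend) in R 4.3.3 on log2(normalized count + 1), old against young, without covariates. P-values were adjusted by Benjamini-Hochberg over the 12667 genes tested. This scale understates the changes of low genes. On the recovered whole reads, edgeR 4.0.16 called 7649 genes and DESeq2 1.42.0 called 7532. On simulated counts for 12667 genes, limma recovered 89% of 100 genes changed by a log2 of 1 and 100% of 100 changed by 2. The simulation changed only 200 genes and gave every gene the same dispersion, whereas 59.7% of genes were called in the data. Its rates therefore check the code and do not describe the recovery in these data. Differences between paired genes were tested by two-sided exact permutation. Positions and sharing of sequence come from GENCODE vM21 (GRCm38), with 12856 of 13081 symbols matched, and no coordinates were converted. Libraries have no replicate number in their titles and are numbered in the order listed. No pair of libraries of a group agreed within sampling noise (lowest chi-square per degree of freedom 2.90).

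The members and lists were chosen with earlier results of these data known. Named genes were all members, the called regulators, the partners of the paired differences and, from each other list, up to 3 called rises and 3 called falls with a mean of at least 50. Alternatives covered pseudocounts, filters, scaling, the test, depth, length and GC trends and leaving out libraries. Reads carry no molecular identifiers, so the floor of 3 reads covers counting error only.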

Additional observations from a re-analysis of the deposited data

Results flagged for a closer look

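Among 100 groups of 4 or 5 libraries examined for a single library far from the others, 7 were marked by the size of the gap to the nearest library relative to the range of the group, and chance alone marks about 1 in 20. One was a member of the hypoxia response. In old replicate 5 Egln3 had 27.6 normalized counts, whereas old replicates 1 to 4 had 57.8 to 60.6 (gap 0.939). The others were genes around the members. Eloc in young replicate 3 had 361 normalized counts against 399 to 405 in the other young libraries (gap 0.873). Ep300 in young replicate 1 had 165 against 201 to 209 (gap 0.838). Insig2 in young replicate 1 had 109 against 123 to 124 (gap 0.889), and Vegfb in young replicate 4 had 286 against 338 to 344 (gap 0.905). Hsp90ab1 in old replicate 5 had 6554 against 5278 to 5594 (gap 0.731), and Nrp1 in old replicate 5 had 546 against 395 to 428 (gap 0.753). Of the 7, 3 were in old replicate 5. Without that library the log2 fold change of Egln3 was 0.0046.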

How the results depend on the processing

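Hif1a, Vegfa and Egln1 kept their direction and call under all 23 alternatives, Epas1 under 22 of 23 and Vhl under 20 of the 22 that tested it. Removal of the length trend left 3 members called (2 higher, 1 lower), since Epas1 (0.18) and Vhl (-0.43) no longer passed, and 8 regulators called. Over all genes it left 7171 of 12455 called, 3593 higher and 3578 lower. With mitochondrial genes left out before scaling, 4 members were called (3 higher, 1 lower), and of all 12654 genes tested 4483 were called higher and 3170 lower. Requiring a mean of at least 100 normalized counts tested 5655 genes, of which 4101 were called (2605 with at least 1.5-fold), and 12 other HIF targets, of which 7 were called. VEGF ligands and receptors called numbered 3 with table total scaling, with thinned reads and after length correction, and 3 to 5 when 1 library was left out. Over all genes the first 3 of these settings called 7450 of 12695, 7239 of 12718 and 7171 of 12455. Leaving out 1 library gave 6900 to 7626 called genes of 12667.

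The sign turned for these uncalled values: Bnip3 (0.0705 with mitochondrial genes left out, 0.20 after length correction), Bnip3l (0.0169 with mitochondrial genes left out), Egln3 (-0.31 to 0.0046 when 1 library was left out, positive without old replicate 5), Ndrg1 (-0.0180 to 0.26, negative without young replicate 4), Bnip3 minus Bnip3l (-0.00993 with thinned reads, -0.0660 to 0.16 when 1 library was left out) and Ndrg1 minus Ndrg2 (-0.23 after length correction, -0.0284 after GC correction, -0.0701 to 0.0917 when 1 library was left out). It turned for Crebbp (-0.16) after length correction. The difference of Epas1 minus Hif1a ranged from -0.70 to -0.56 and that of Vegfa minus Vegfb from 0.82 to 0.99 when 1 library was left out. The former was -0.47 after GC correction and the latter 0.61 after length correction, both still passing (exact permutation adjusted p = 0.0397 and 0.0265), and without both libraries with adipocyte markers, chosen after seeing the data, they were -0.63 and 0.91 (exact permutation adjusted p = 0.143 for each, as fewer splits remain). Egln3 minus Egln1 passed after length correction (0.53, exact permutation adjusted p = 0.0265) and without old replicate 2 (0.49, adjusted 0.0476), ranging from 0.26 to 0.49 when 1 library was left out. Of 37 other named genes, 13 changed call or sign under at least 1 alternative. The cause of these changes was not tested. No paired analysis was possible because the titles carry no replicate numbers. Of the 8 members, Vhl and Egln3 had the lowest counts.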

Other observations

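The 9 genes listed here were mitophagy receptors and regulators related to Bnip3 by function and members of the Ndrg1 family. Of these 8 were tested, with 2 called higher, 3 lower and 3 not (limma), near the shares over all genes (29.2% and 30.5%). Their median log2 fold change was -0.21. With mitochondrial genes left out before scaling 3 were called higher and 2 lower, where 4483 of all 12654 genes were called higher and 3170 lower. Phb2, an inner membrane receptor of mitophagy, fell from 904 ± 22.3 to 356 ± 88.3 normalized counts (SD, n = 4 and 5, -1.38, SE 0.14, limma adjusted p = 9.68e-08), and Fkbp8, an outer membrane receptor, from 565 ± 64.4 to 381 ± 53.9 (-0.57, SE 0.12, limma adjusted p = 0.000445). Pink1, the kinase that marks damaged mitochondria, fell by 0.29 (SE 0.10, limma adjusted p = 0.0148), a call kept in 19 of 23 alternatives. It was lost after removal of the length trend (-0.08, limma adjusted p = 0.453), with mitochondrial genes left out (-0.15, limma adjusted p = 0.180), after removal of the GC trend (-0.20, limma adjusted p = 0.0626) and without young replicate 1 (-0.26, limma adjusted p = 0.0560). The receptor Bcl2l13 rose from 129 ± 17.0 to 235 ± 10.7 (0.87, SE 0.12, limma adjusted p = 4.18e-06), and Ndrg3, a paralog of Ndrg1, from 152 ± 8.43 to 241 ± 21.6 (0.66, SE 0.11, limma adjusted p = 5.35e-05). Bnip3l (-0.12, SE 0.12, limma adjusted p = 0.402) and Ndrg2 (0.14, SE 0.11, limma adjusted p = 0.289) did not pass. Ndrg2 did pass with mitochondrial genes left out (0.28, limma adjusted p = 0.0297) and after removal of the length trend (0.38, limma adjusted p = 0.00739), where Bcl2l13 was at 0.53 and Fkbp8 at -0.305, both still called.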
